A study of Mus musculus with 14 samples.

Results

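Tregs restrain other immune cells and help to repair tissue through a small set of secreted or cytotoxic molecules, and the chromatin of 7 genes that encode such molecules was examined here in bulk ATAC-seq libraries of mouse splenic Tregs. The genes were Il10, Ebi3, Tgfb1, Areg, Fgl2, Gzmb and Penk. A region of the deposited count table was assigned to a gene when its midpoint had that gene as the nearest protein-coding transcription start in GRCm38, or lay within the gene body. No measured value entered this rule. It found 42 of the 67254 regions, with 13 at Il10, 10 at Fgl2, 8 at Gzmb, 4 at Areg, 4 at Penk, 2 at Tgfb1 and 1 at Ebi3. Of these, 40 passed the filter on low counts and were tested, among 61366 tested regions in all. The regions that could not be tested lay 61.2 kb upstream of Penk and 13.9 kb downstream of the Fgl2 start. No region of the table lay within 500 bp of the Il10 start. All 10 Fgl2 regions also lie inside Ccdc146, within which Fgl2 sits, and the Ebi3 promoter region overlaps the body of Zfp119b.

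From each genotype 2 populations were sorted. Central Tregs (cTregs, sorted as CD44-) are the resting pool of lymphoid tissue, and effector Tregs (eTregs, sorted as CD44+) are the activated pool with high suppressive activity. All sorted cells were CD45.2+ CD4+ Foxp3-YFP+ and came from the spleens of mixed BM chimeras. Rag1-/- hosts, which lack T and B cells of their own but keep their other blood cells, were sublethally irradiated and received CD45.2+ BM mixed 1:1 with CD45.1+ WT BM, and were used 6 to 8 weeks later. Donors of the control cells were Foxp3Cre Atg14+/fl, so that control Tregs could also lose 1 Atg14 allele, and donors of the Atg14-deficient cells were Foxp3Cre Atg14 fl/fl. Cre was driven from Foxp3 in both genotypes and acts in cells that have turned Foxp3 on. Atg14 is the subunit that directs the lipid kinase Vps34 to autophagy, and the libraries ask whether its loss alters the accessible chromatin of either population. There were 3 control cTreg, 4 Atg14-deficient cTreg, 3 control eTreg and 4 Atg14-deficient eTreg libraries. The study describes as many chimeras of each genotype as there are libraries of a state, so that the libraries of a group are taken as separate mice, and each mouse as the source of both states. Which cTreg and eTreg libraries share a mouse is given neither there nor in the labels. The part of Atg14 that the floxed allele removes is not given in the sources used here, and no region was used to check the deletion.

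Total counts ranged from 2242983 to 5548189 per library with a median of 3557575.5, so that 1 count was worth between 0.180 and 0.446 CPM, the count per 1000000 counts of its library. The table listed a region within 500 bp of the start of 3 of 4 Treg marker genes, Il2ra, Ikzf2 and Ctla4, but none at Foxp3. It listed none at any of 4 B cell or 4 myeloid marker genes. Of 5 NK and CD8 T cell marker genes, Cd8b1 and Klrb1c had one, with summed values of 13.5 to 22.2 CPM in cTregs and 4.37 to 12.0 CPM in eTregs. The summed promoter signal of the effector-state genes Cd44, Icos and Prdm1 was 106.0 to 126.8 CPM in control cTregs and 109.4 to 122.6 CPM in control eTregs. In Atg14-deficient Tregs it was 108.6 to 144.4 CPM in cTregs and 101.3 to 128.0 CPM in eTregs, so that the states overlapped. Icos alone was lower in eTregs without overlap (29.3 to 36.1 against 16.2 to 22.1 CPM in controls, 32.8 to 48.7 against 19.2 to 25.2 CPM in Atg14-deficient Tregs). Cd44 and Prdm1 overlapped, and Klrg1 had no promoter region.

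The 7 molecules act in different ways. IL-10 is a cytokine that quiets macrophages, dendritic cells and T cells. Ebi3 is a subunit of the heterodimeric cytokines IL-27 and IL-35, the latter formed with the product of Il12a, and TGF-β1 is held latent on the Treg surface until it is released. Areg encodes amphiregulin, an EGF-like growth factor that Tregs make in injured tissue. Fgl2 is a secreted fibrinogen-like protein that inhibits antigen-presenting cells through the Fc receptor Fcgr2b, Gzmb encodes granzyme B, a protease that kills target cells, and Penk encodes proenkephalin, the precursor of opioid peptides. A gene that is poised or active has accessible chromatin at its promoter and at its enhancers, and the transposase used in ATAC-seq inserts there more often.

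The sequences below are those of the 7 member regions more accessible in control eTregs than in control cTregs. Each is read from the + strand of GRCm38 and is the central 200 bases of a region, except at Areg, where the 250 bases before the start are those of RefSeq for GRCm38.p6. Capitals mark the AP-1 motif TGANTCA, the cyclic AMP response element (CRE) TGACGTCA and its variant TGCGTCA, on either strand, and no match overlapped another.
Il10, 25.9 kb upstream of the start, chr1:130993795-130993994: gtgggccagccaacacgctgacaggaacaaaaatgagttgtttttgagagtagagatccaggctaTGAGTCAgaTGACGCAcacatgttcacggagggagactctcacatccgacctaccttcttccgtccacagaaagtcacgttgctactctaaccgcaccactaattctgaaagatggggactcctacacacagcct
Il10, 16.4 kb upstream of the start, chr1:131003320-131003519: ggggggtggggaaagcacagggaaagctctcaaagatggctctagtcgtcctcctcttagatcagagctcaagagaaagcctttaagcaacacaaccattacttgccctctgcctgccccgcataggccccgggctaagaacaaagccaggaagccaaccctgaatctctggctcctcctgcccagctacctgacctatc
Il10, 9.2 kb upstream of the start, chr1:131010593-131010792: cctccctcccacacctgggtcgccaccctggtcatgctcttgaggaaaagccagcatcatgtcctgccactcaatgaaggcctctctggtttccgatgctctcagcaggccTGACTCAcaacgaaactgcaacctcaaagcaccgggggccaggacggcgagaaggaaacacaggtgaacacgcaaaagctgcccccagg
Il10, intron 1.8 kb downstream of the start, chr1:131021570-131021769: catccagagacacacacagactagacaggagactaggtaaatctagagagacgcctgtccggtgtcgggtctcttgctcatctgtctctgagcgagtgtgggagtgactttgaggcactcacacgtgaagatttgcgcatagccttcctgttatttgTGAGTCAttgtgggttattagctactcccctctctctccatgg
Il10, 18.7 kb downstream of the start, chr1:131038479-131038678: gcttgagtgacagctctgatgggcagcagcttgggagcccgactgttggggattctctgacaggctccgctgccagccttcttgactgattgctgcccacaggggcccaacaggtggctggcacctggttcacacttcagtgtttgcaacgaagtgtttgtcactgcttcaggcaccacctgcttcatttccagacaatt
Fgl2, 12.5 kb downstream of the start, chr5:21385096-21385295: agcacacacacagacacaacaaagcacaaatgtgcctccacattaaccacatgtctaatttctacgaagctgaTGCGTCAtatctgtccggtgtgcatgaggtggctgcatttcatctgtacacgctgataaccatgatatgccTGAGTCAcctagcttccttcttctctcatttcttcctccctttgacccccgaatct
Areg promoter, chr5:91139349-91139598: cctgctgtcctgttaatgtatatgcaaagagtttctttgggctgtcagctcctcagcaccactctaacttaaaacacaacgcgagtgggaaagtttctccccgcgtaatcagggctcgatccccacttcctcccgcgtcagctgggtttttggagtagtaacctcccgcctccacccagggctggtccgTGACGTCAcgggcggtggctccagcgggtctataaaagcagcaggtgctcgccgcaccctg

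Of the 5 Il10 windows 3 hold an AP-1 match, and that 25.9 kb upstream also holds the CRE variant. Those 16.4 kb upstream and 18.7 kb downstream hold none of these letters. The Fgl2 window holds both an AP-1 match and the CRE variant. The Areg promoter holds a full CRE shortly before the start.

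The first question was which of the loci differ between the resting and the effector state in control Tregs. Several Il10 regions, the Areg promoter and a single Fgl2 region were more accessible in control eTregs, and no region of the other 4 loci passed the adjusted threshold. By edgeR's quasi-likelihood test, 7 of 40 member regions were more accessible in control eTregs with a log2 fold change over 0.5 at an adjusted p under 0.05, against 2.01% of all tested regions, and they comprised 5 at Il10, 1 at Areg and 1 at Fgl2. In the other direction 0 passed, against 3.29% of all regions. At an unadjusted p below 0.05 the members numbered 10 higher (background 7.76%) and 2 lower (background 10.4%). DESeq2 called 7 higher (background 2.57%) and 0 lower (background 4.19%) at the adjusted threshold. The median log2 fold change was 0.37 over the members and -0.01 over all tested regions. The summed promoter signal of the Treg genes Il2ra, Ikzf2 and Ctla4 was 108.7 to 119.0 CPM in control cTregs and 80.0 to 87.4 CPM in control eTregs, without overlap, and its part in these values was not tested. Taken singly, Ikzf2 and Ctla4 were apart and Il2ra overlapped (8.47 to 19.15 against 10.4 to 21.8 CPM). The count of 7 fell to 2 without control cTreg 1, control cTreg 3 or control eTreg 1 (background 0.655% to 0.846%), and to 3 without control eTreg 2 (background 0.984%).

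In Atg14-deficient Tregs 10 of 40 member regions were more accessible in eTregs at the adjusted threshold (background 4.41%), 5 at Il10, 3 at Areg, 1 at Fgl2 and 1 at Tgfb1, and 0 were less accessible (background 5.4%). At the unadjusted threshold 18 were higher (background 11.4%) and 0 lower (background 11.8%), and the median log2 fold change was 0.62 against 0.02 over all regions. DESeq2 called 13 higher (background 5.25%) and 0 lower (background 6.38%). The Treg gene promoters summed to 123.4 to 149.3 CPM in these cTregs and 102.9 to 106.7 CPM in these eTregs, again without overlap and with their part not tested. Taken singly, Ctla4 was apart, and Il2ra and Ikzf2 overlapped. Same-numbered Atg14-deficient cTreg and eTreg libraries deviated together, and with the replicate number as a block 19 of 40 regions were higher, against 7.63% of all regions. The block added 5 regions at Il10, both Penk regions at and just upstream of the start, the Ebi3 promoter and the Tgfb1 intron. The control calls above are without this block, which added calls there too. Without Atg14-deficient cTreg 3 the count was 5 (background 1.79%). The plot of fitted differences between states shows both genotypes.

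**Figure D1:**
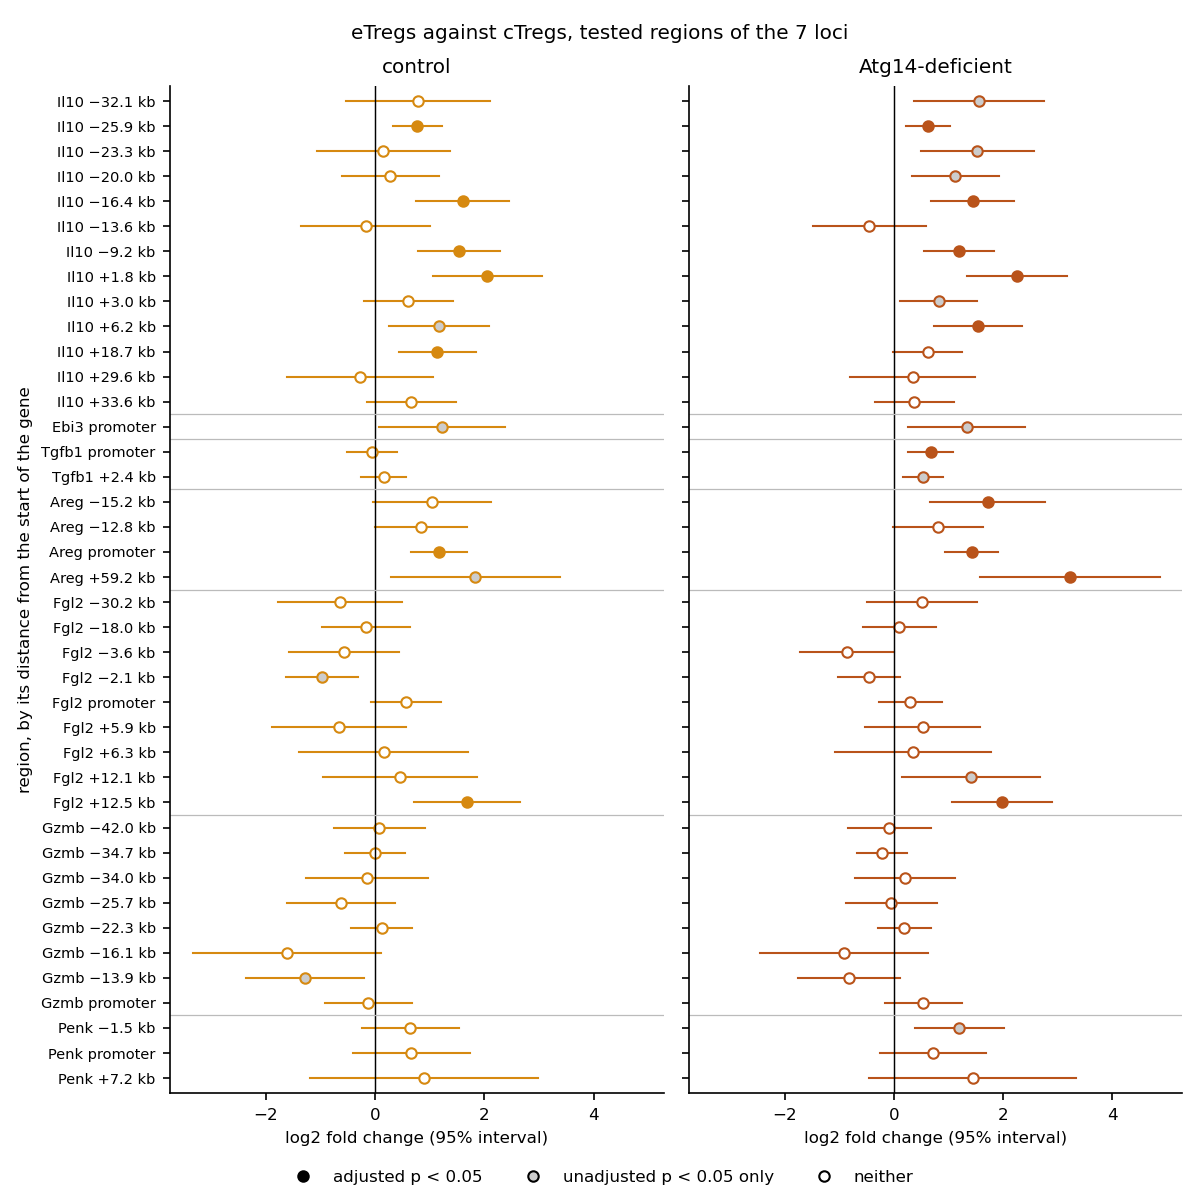
Log2 fold change (x axis, with 95% interval) of eTregs against cTregs for the 40 tested regions of the 7 loci (y axis, by gene and distance from its start), in control (left, n = 3 per state) and Atg14-deficient Tregs (right, n = 4 per state). Solid points passed the adjusted and grey points only the unadjusted threshold, and the solid points number 7 in controls and 10 in Atg14-deficient Tregs, all of them above 0.

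At Il10 the intronic region 1.8 kb downstream of the start (chr1:131021513-131021828) had the steepest difference of the locus. It read 3.91, 3.83 and 0 CPM in control cTregs, 0.840, 1.56, 2.63 and 3.86 CPM in Atg14-deficient cTregs, 14.3, 10.8 and 11.0 CPM in control eTregs, and 12.0, 8.37, 12.7 and 11.3 CPM in Atg14-deficient eTregs. Every eTreg library lay above every cTreg library, and control cTreg 3, the shallowest library, had no count. The log2 fold change was 2.05 (SE 0.49, adjusted p = 0.0124) in controls and 2.26 (SE 0.45, adjusted p = 0.00209) in Atg14-deficient Tregs.

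The region 16.4 kb upstream of Il10 (chr1:131003061-131003780) read 11.2, 20.8 and 4.46 CPM in control cTregs and 38.4, 53.0 and 25.8 CPM in control eTregs. Its values were 20.2, 7.79, 8.41 and 18.0 CPM in Atg14-deficient cTregs and 46.1, 31.0, 29.7 and 39.6 CPM in Atg14-deficient eTregs. No eTreg library reached down to a cTreg library, and the log2 fold change was 1.60 (SE 0.41, adjusted p = 0.0291) in controls and 1.45 (SE 0.36, adjusted p = 0.0171) in Atg14-deficient Tregs.

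Closer to the gene, the region 9.2 kb upstream (chr1:131010474-131010913) read 5.38, 12.7 and 2.23 CPM in control cTregs and 20.8, 22.3 and 19.5 CPM in control eTregs. In the Atg14-deficient libraries it read 10.9, 5.45, 8.41 and 14.1 CPM in cTregs and 25.5, 19.2, 19.6 and 24.7 CPM in eTregs. Here too the states were apart in both genotypes, with log2 fold changes of 1.53 (SE 0.36, adjusted p = 0.0126) and 1.19 (SE 0.31, adjusted p = 0.0154).

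The most accessible Il10 region, 25.9 kb upstream (chr1:130993649-130994141), was open in every library and differed least of the called Il10 regions. It ranged from 23.0 to 41.1 CPM over all cTregs, from 48.1 to 65.1 CPM in control eTregs and from 34.3 to 61.2 CPM in Atg14-deficient eTregs, where Atg14-deficient eTreg 2 lay among the cTregs. The log2 fold change was 0.77 (SE 0.22, adjusted p = 0.0378) in controls and 0.63 (SE 0.19, adjusted p = 0.0378) in Atg14-deficient Tregs.

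Without the block, regions downstream of the gene passed in 1 genotype each, and with it these regions passed in both genotypes. The region 18.7 kb downstream of the start rose from 8.07, 20.3 and 6.24 CPM in control cTregs to 20.8, 35.7 and 22.4 CPM in control eTregs (log2 fold change 1.14, SE 0.34, adjusted p = 0.0482), while its Atg14-deficient log2 fold change was 0.62 (SE 0.31, adjusted p = 0.196), and 0.63 with the block (adjusted p = 0.0426). That 6.2 kb downstream rose from 2.52, 1.56, 4.73 and 11.2 CPM in Atg14-deficient cTregs to 15.9, 8.79, 13.2 and 22.1 CPM in Atg14-deficient eTregs (log2 fold change 1.55, SE 0.39, adjusted p = 0.0131), and its log2 fold change in controls was 1.17 (SE 0.45, adjusted p = 0.128). With the block its control value was 1.22 (adjusted p = 0.0140), although same-numbered control libraries did not meet the rule for pairing. The difference between the genotypes was -0.52 (SE 0.46, adjusted p = 1.00) for the first and 0.37 (SE 0.60, adjusted p = 1.00) for the second region. Among the other 7 Il10 regions the log2 fold change ran from -0.28 to 0.78 in controls and from -0.44 to 1.57 in Atg14-deficient Tregs, and none passed the adjusted threshold without the block.

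Summed over its 13 regions, Il10 amounted to 108.4 ± 48.7 CPM (SD, n = 3) in control cTregs, 117.3 ± 41.8 (n = 4) in Atg14-deficient cTregs, 219.1 ± 41.4 (n = 3) in control eTregs and 226.9 ± 41.8 (n = 4) in Atg14-deficient eTregs. Within cTregs the sum varied widely, from 64.7 to 160.8 CPM in controls and from 74.4 to 172.2 CPM in Atg14-deficient libraries, and the upper ends were control cTreg 2 and Atg14-deficient cTreg 4. Leaving out single libraries ended calls in controls: those 25.9 and 16.4 kb upstream without control cTreg 1, control cTreg 3, control eTreg 1 or control eTreg 2 (log2 fold changes 0.61 to 0.82 and 1.27 to 1.61), that 9.2 kb upstream without control cTreg 1 or 3 (1.20 to 1.35), that 1.8 kb downstream without control eTreg 1 (1.92), and that 18.7 kb downstream without any 1 library except control cTreg 2 (0.86 to 1.27). In Atg14-deficient Tregs the intronic call stood whichever library was left out, with log2 fold changes of at least 2.02. The calls 16.4, 9.2 and 25.9 kb upstream and 6.2 kb downstream were lost without Atg14-deficient cTreg 3, at log2 fold changes of 1.26, 1.12, 0.59 and 1.50. The call 9.2 kb upstream was also lost without Atg14-deficient cTreg 2 (1.00), that 6.2 kb downstream without Atg14-deficient eTreg 4 (1.30), and that 25.9 kb upstream without Atg14-deficient cTreg 2 or Atg14-deficient eTreg 1, 3 or 4 (0.49 to 0.63). The plot of the Il10 locus gives all 13 regions.

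**Figure D2:**
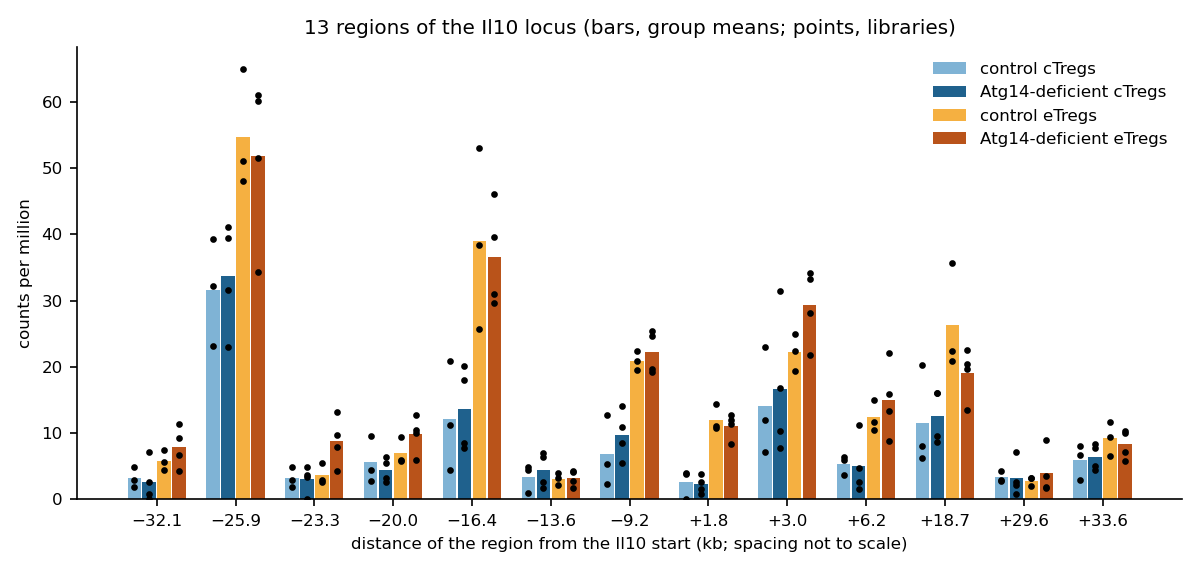
CPM (y axis) at the 13 Il10 regions, ordered along the x axis by distance from the start (negative upstream), with bars for the mean of each of the 4 groups and points for libraries. The eTreg bars stand above the cTreg bars at most regions, and at the region 23.3 kb upstream the Atg14-deficient eTreg mean was 8.77 ± 3.75 CPM (SD, n = 4) against 3.67 ± 1.60 CPM (n = 3) in control eTregs.

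Ebi3 had a single region, over its promoter (chr17:55952460-55952923), with low counts. It read 2.44, 3.35 and 4.46 CPM in control cTregs, 3.36, 0, 1.58 and 4.82 CPM in Atg14-deficient cTregs, 6.51, 11.6 and 5.41 CPM in control eTregs, and 4.20, 5.44, 4.77 and 10.3 CPM in Atg14-deficient eTregs. The control states were apart and the Atg14-deficient states overlapped. Its log2 fold change was 1.22 (SE 0.56, adjusted p = 0.222) in controls and 1.33 (SE 0.53, adjusted p = 0.0988) in Atg14-deficient Tregs. With the block, the Atg14-deficient log2 fold change was 1.42 (adjusted p = 0.0332).

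Tgfb1 was open in both states. The intronic region 2.4 kb downstream of its start, the more accessible of its 2 regions, lay between 22.3 and 44.8 CPM in all 14 libraries. Its promoter region (chr7:25686714-25687530) read 19.1, 24.2 and 28.5 CPM in control cTregs and 20.2, 24.9 and 22.9 CPM in control eTregs, which overlapped (log2 fold change -0.06, SE 0.22, adjusted p = 0.918). In Atg14-deficient Tregs it rose from 25.2, 20.2, 17.9 and 15.4 CPM in cTregs to 32.7, 28.5, 35.2 and 28.3 CPM in eTregs, with the states apart (log2 fold change 0.67, SE 0.20, adjusted p = 0.0276). That call ended without Atg14-deficient cTreg 3 or 4 or Atg14-deficient eTreg 1 or 3, at log2 fold changes of 0.57 to 0.65. The intronic region had log2 fold changes of 0.16 (SE 0.20, adjusted p = 0.726) in controls and 0.53 (SE 0.18, adjusted p = 0.0537) in Atg14-deficient Tregs, the latter with an adjusted p of 0.0126 under the block.

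Without the block, the Areg promoter had the smallest p-value of the member regions in both comparisons of states. With it, the Il10 region 16.4 kb upstream had the smallest in both. The Areg promoter (chr5:91139303-91139955, promoter and coding exon) read 17.1, 23.5 and 14.3 CPM in control cTregs and 41.3, 32.8 and 50.3 CPM in control eTregs. Atg14-deficient libraries read 18.5, 7.79, 10.5 and 9.00 CPM in cTregs and 31.2, 25.9, 33.6 and 30.8 CPM in eTregs. The states did not overlap in either genotype, and the log2 fold change was 1.17 (SE 0.25, adjusted p = 0.00630) in controls and 1.43 (SE 0.24, adjusted p = 0.000401) in Atg14-deficient Tregs. Both calls held without each library in turn, and over all alternatives the log2 fold changes ran from 1.00 to 1.39 and from 1.30 to 1.73.

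The other 3 Areg regions had fewer counts, and all had log2 fold changes above 0 in both genotypes. The region 59.2 kb downstream, beyond the gene, had 0, 0, 0.263 and 1.28 CPM in Atg14-deficient cTregs and 3.60, 5.86, 1.85 and 5.65 CPM in Atg14-deficient eTregs. The cTreg values there rest on 0, 0, 1 and 4 counts, and the fitted log2 fold change of 3.23 had a 95% interval of 1.58 to 4.87 (adjusted p = 0.0108). In controls it read 0.978, 2.39 and 0 CPM in cTregs and 5.86, 3.15 and 4.69 CPM in eTregs (log2 fold change 1.84, SE 0.76, adjusted p = 0.162). The region 15.2 kb upstream had log2 fold changes of 1.05 (SE 0.53, adjusted p = 0.269) in controls and 1.72 (SE 0.52, adjusted p = 0.0317) in Atg14-deficient Tregs, the call being lost without Atg14-deficient cTreg 1 or 2 or Atg14-deficient eTreg 1, 3 or 4 (1.38 to 1.70). That 12.8 kb upstream had 0.84 (SE 0.41, adjusted p = 0.255) and 0.81 (SE 0.40, adjusted p = 0.197). Summed over 4 regions, Areg amounted to 30.3 ± 8.12 CPM (SD, n = 3) in control cTregs, 17.5 ± 4.83 (n = 4) in Atg14-deficient cTregs, 67.1 ± 10.7 (n = 3) in control eTregs and 47.7 ± 7.41 (n = 4) in Atg14-deficient eTregs.

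Without the block, Fgl2 differed between states at 1 of its 9 tested regions. The region 12.5 kb downstream of the start (chr5:21385011-21385381) read 2.44, 3.35 and 2.68 CPM in control cTregs, 2.52, 0, 2.10 and 3.21 CPM in Atg14-deficient cTregs, 9.76, 8.66 and 9.19 CPM in control eTregs, and 8.09, 6.69, 7.94 and 9.25 CPM in Atg14-deficient eTregs. Its log2 fold change was 1.68 (SE 0.48, adjusted p = 0.0346) in controls, lost without any 1 library except control cTreg 2 (1.57 to 1.72), and 1.99 (SE 0.45, adjusted p = 0.00524) in Atg14-deficient Tregs. The promoter, by contrast, read 7.09, 8.62 and 12.5 CPM in control cTregs and 15.0, 14.2 and 11.9 CPM in control eTregs, which overlapped (log2 fold change 0.56, SE 0.31, adjusted p = 0.325). In Atg14-deficient Tregs the promoter log2 fold change was 0.30 (SE 0.28, adjusted p = 0.526). The region 2.1 kb upstream, the locus's most accessible, ran the other way in controls, from 12.2, 28.2 and 14.3 CPM in cTregs to 10.4, 11.6 and 6.49 CPM in eTregs (log2 fold change -0.98, SE 0.32, adjusted p = 0.0709), and was -0.45 (SE 0.28, adjusted p = 0.314) in Atg14-deficient Tregs. With the block it passed in controls, at -0.91 (adjusted p = 0.0256). The sum over 10 regions lay between 45.7 and 70.4 CPM in all 14 libraries.

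At Gzmb no region passed the adjusted threshold between states, and 5 of its 8 regions had a log2 fold change below 0 in each genotype. The promoter read 17.6, 16.8 and 7.13 CPM in control cTregs, 12.6, 7.79, 10.5 and 17.4 CPM in Atg14-deficient cTregs, 13.7, 19.9 and 6.13 CPM in control eTregs, and 16.8, 10.0, 17.5 and 25.2 CPM in Atg14-deficient eTregs. It overlapped in every pair of groups, with log2 fold changes of -0.13 (SE 0.39, 95% interval -0.92 to 0.67) in controls and 0.54 (SE 0.34, 95% interval -0.16 to 1.24) in Atg14-deficient Tregs. The most accessible region, 34.7 kb upstream, had log2 fold changes of 0.0017 (SE 0.27) and -0.22 (SE 0.22). Accessibility was lower in control eTregs at the region 13.9 kb upstream only at the unadjusted threshold, at 4.89, 5.27 and 8.92 CPM in cTregs against 1.95, 4.72 and 1.08 CPM in eTregs (log2 fold change -1.29, SE 0.53, adjusted p = 0.164).

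At Penk no region passed the adjusted threshold between states without the block. Its promoter (chr4:4138678-4139078) read 8.80, 16.8 and 8.92 CPM in control cTregs and 19.8, 15.0 and 20.6 CPM in control eTregs. In Atg14-deficient libraries 1 to 4 it read 10.1, 21.0, 4.47 and 7.71 CPM in cTregs and 18.6, 35.1, 7.41 and 10.8 CPM in eTregs. The libraries numbered 2 were the highest of both states and those numbered 3 the lowest, and each eTreg library was above the cTreg library of its number. The log2 fold change was 0.66 (SE 0.51, adjusted p = 0.520) in controls and 0.73 (SE 0.46, adjusted p = 0.339) in Atg14-deficient Tregs, and with the block the latter was 0.71 (adjusted p = 0.0432). The region 1.5 kb upstream had 0.64 (SE 0.43, adjusted p = 0.441) and 1.20 (SE 0.40, adjusted p = 0.0508), with an adjusted p of 0.0130 under the block in Atg14-deficient Tregs. The plot of 9 regions by library shows the members on which these comparisons turned.

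**Figure D3:**
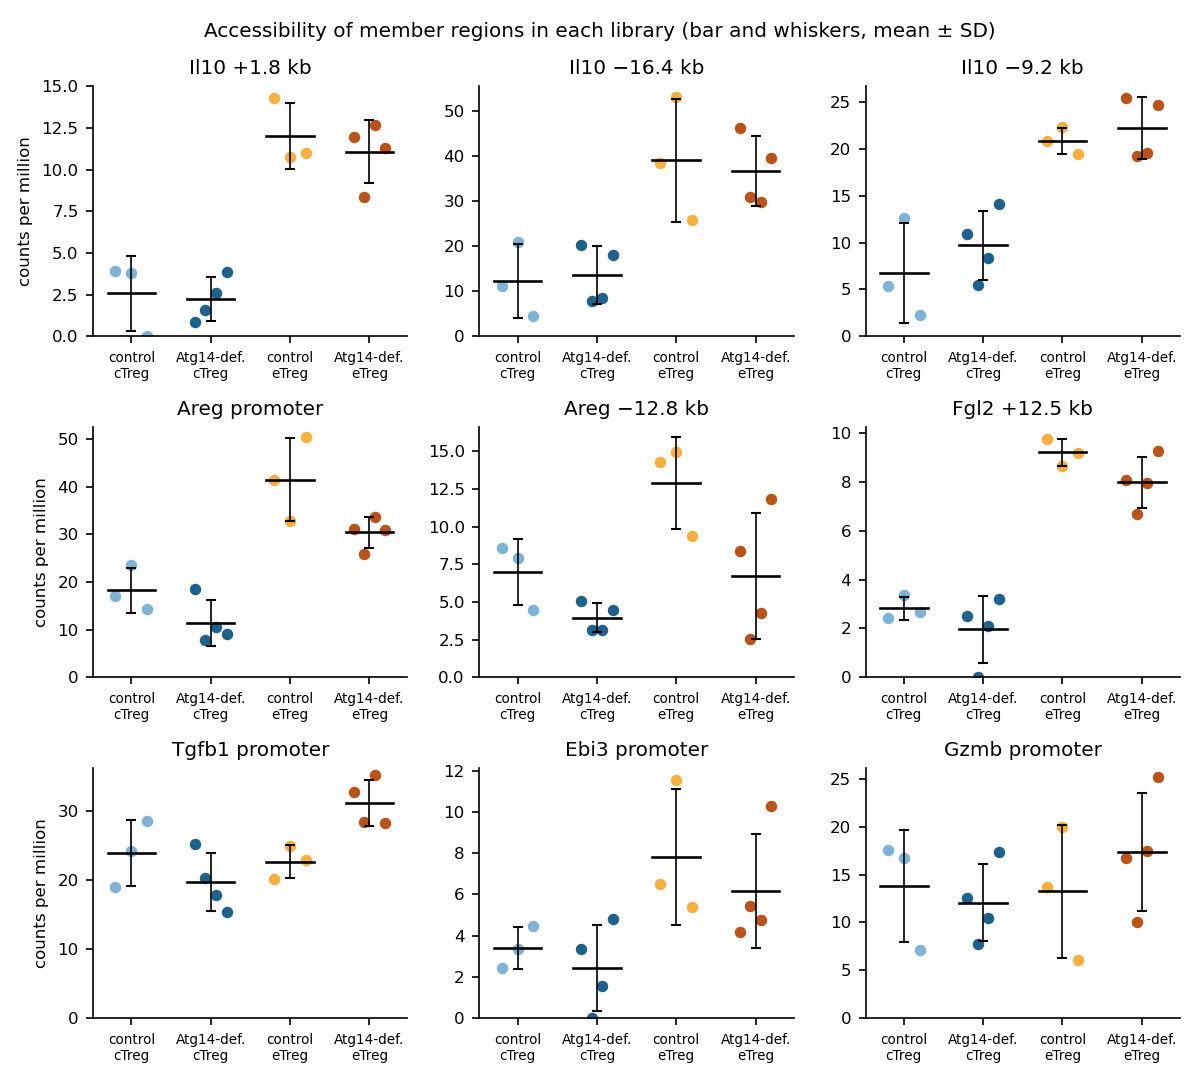
CPM (y axis, from 0) of 9 member regions in each of the 14 libraries, by group on the x axis, with the mean as a horizontal line and the SD as whiskers. All eTreg points stand above all cTreg points at the 3 Il10 regions, the Areg promoter and the Fgl2 region, and the groups overlap at the Gzmb promoter.

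The main question of the series was whether loss of Atg14 changed accessibility within a state. In eTregs 0 of 40 member regions passed the adjusted threshold by edgeR, against 0.0228% of all regions, and 0 passed by DESeq2 (background 0.0913%). At the unadjusted threshold 1 was higher (background 4.59%) and 1 lower (background 1.77%) in Atg14-deficient eTregs by edgeR, and DESeq2 also gave 1 (background 4.78%) and 1 (background 1.75%). The median log2 fold change was 0.21 over the members and 0.06 over all regions. Over all regions the split of unadjusted calls depended on the scaling, from 2818 higher and 1084 lower under total counts to 2280 and 1512 under TMM and 2074 and 1642 under loess offsets. The summed promoter signal of the Treg genes was higher in Atg14-deficient than in control eTregs without overlap (102.9 to 106.7 against 80.0 to 87.4 CPM), and its part in these values was not tested. Of these genes only Ikzf2 was apart singly (46.1 to 51.9 against 30.4 to 39.5 CPM), and Il2ra and Ctla4 overlapped.

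The higher region in eTregs lay 23.3 kb upstream of Il10 (chr1:130996474-130996644), with 2.60, 5.51 and 2.88 CPM in control and 13.2, 4.18, 7.94 and 9.76 CPM in Atg14-deficient eTregs. The groups overlapped at Atg14-deficient eTreg 2, and the log2 fold change was 1.27 (SE 0.53, adjusted p = 0.562). The lower region lay 12.8 kb upstream of Areg (chr5:91126578-91126997), with 14.3, 15.0 and 9.37 CPM in control and 8.39, 2.51, 4.24 and 11.8 CPM in Atg14-deficient eTregs (log2 fold change -0.89, SE 0.38, adjusted p = 0.568). Tgfb1 promoter values did not overlap between the genotypes of eTregs, at 20.2, 24.9 and 22.9 CPM against 32.7, 28.5, 35.2 and 28.3 CPM, but the log2 fold change of 0.46 (SE 0.21, adjusted p = 0.592) was under the cutoff of 0.5. For the Il10 regions called between states the genotype log2 fold change in eTregs ran from -0.46 to 0.30, and the 95% interval at the intronic region was -0.93 to 0.72. Changes of the size of the cutoff lie within that interval. Among the other loci, the region 18.0 kb upstream of Fgl2 had 0.69 (SE 0.36, adjusted p = 0.648), that 34.0 kb upstream of Gzmb 0.91 (SE 0.50, adjusted p = 0.675), the Gzmb promoter 0.43 (SE 0.36, adjusted p = 0.808), the Ebi3 promoter -0.32 (SE 0.49, adjusted p = 0.917) and the Penk promoter -0.08 (SE 0.46, adjusted p = 0.983).

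In cTregs 0 of 40 passed the adjusted threshold by edgeR (background 0.0163%) and 0 by DESeq2 (background 0.0293%). At the unadjusted threshold 0 were higher (background 1.99%) and 1 was lower (background 1.35%), the Areg promoter, and DESeq2 also gave 0 (background 2.18%) and 1 (background 1.36%). This promoter read 17.1, 23.5 and 14.3 CPM in control and 18.5, 7.79, 10.5 and 9.00 CPM in Atg14-deficient cTregs, with Atg14-deficient cTreg 1 among the controls (log2 fold change -0.71, SE 0.26, adjusted p = 1.00). All 4 Areg regions had a log2 fold change below 0 in Atg14-deficient Tregs of both states, from -0.89 to -0.11 in eTregs and from -1.51 to -0.71 in cTregs. Of all 61366 tested regions, 26885 were below 0 in eTregs and 28556 in cTregs. The Areg regions share a locus and libraries, so their signs are not independent. In eTregs the Areg promoter had -0.45 (SE 0.23, 95% interval -0.91 to 0.02, adjusted p = 0.640). Elsewhere in cTregs the log2 fold change was 0.44 (SE 0.36) at the Il10 region 9.2 kb upstream, 0.43 (SE 0.25) at the Gzmb region 34.7 kb upstream, 0.54 (SE 0.45) at the Fgl2 region 3.6 kb upstream and -0.42 (SE 0.44) at the Penk region 1.5 kb upstream, each with an adjusted p of 1.00. The median over the members was -0.11 in cTregs against 0.03 over all regions. The summed promoter signal of the Treg genes was higher in Atg14-deficient than in control cTregs too, at 123.4 to 149.3 against 108.7 to 119.0 CPM without overlap, and its part was not tested. Taken singly, Il2ra, Ikzf2 and Ctla4 each overlapped between the genotypes of cTregs. The unadjusted split over all regions was 1224 higher and 828 lower under total counts and 986 and 1084 under loess offsets.

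**Figure D4:**
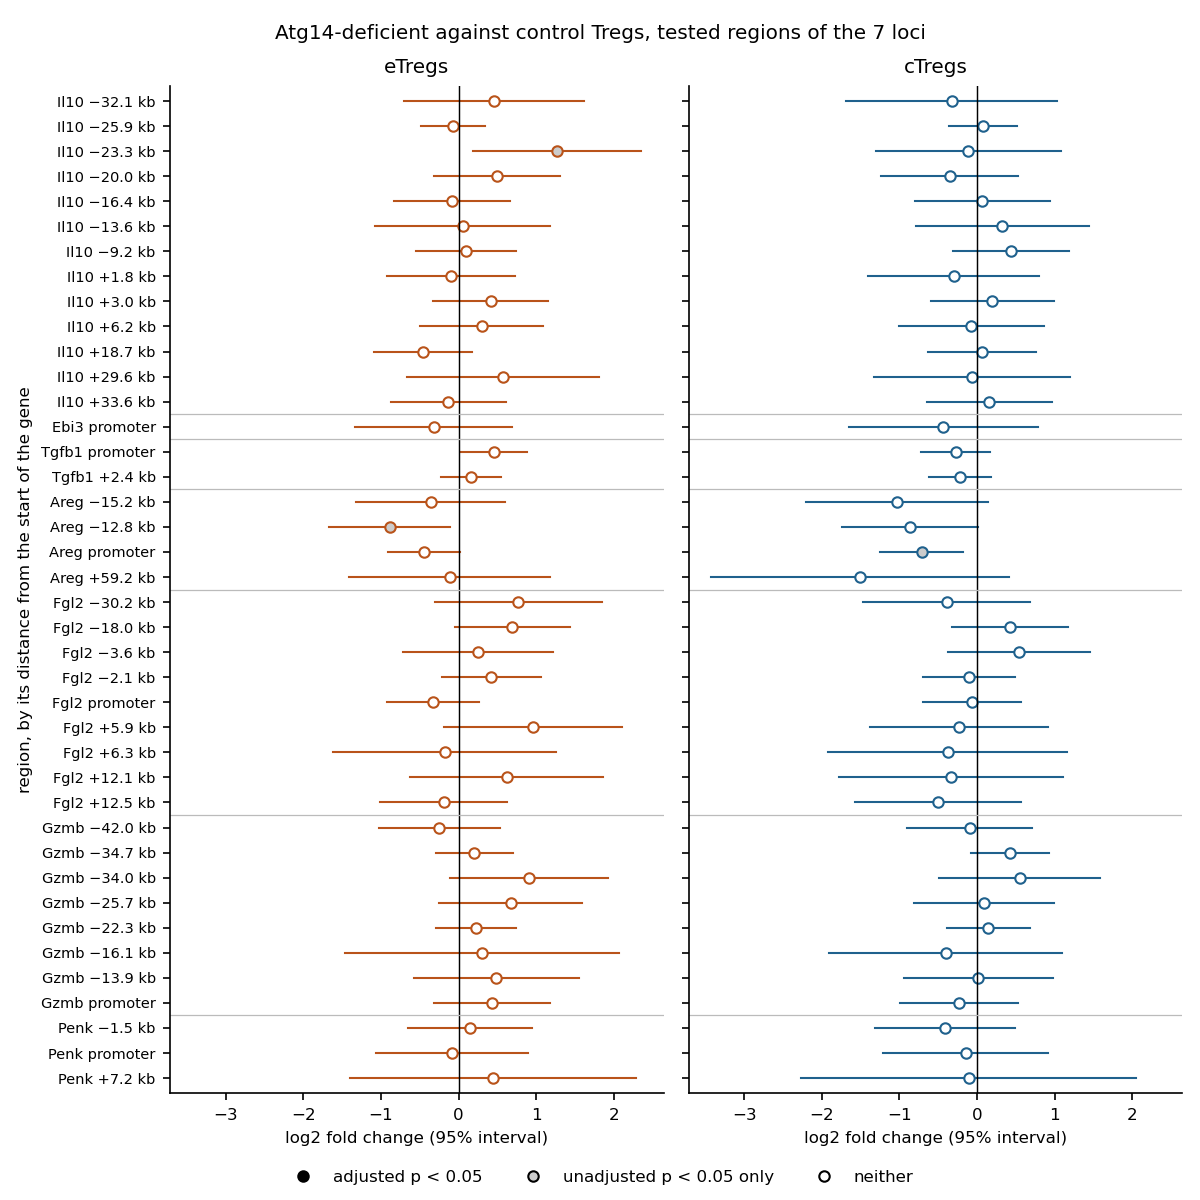
Log2 fold change (x axis, with 95% interval) of Atg14-deficient against control Tregs for the 40 tested regions of the 7 loci (y axis, by gene and distance from its start), in eTregs (left) and cTregs (right), n = 4 against n = 3 in each. No point is solid, which would mark an adjusted p below 0.05, and the 4 Areg points, all of the same locus, lie left of 0 in both panels.

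Whether the effect of Atg14 differed between eTregs and cTregs was tested as the difference of the 2 effects. By edgeR 0 of 40 member regions passed the adjusted threshold, as did 0.0% of all regions, and 0 of the members passed by DESeq2. At the unadjusted threshold 1 was higher (background 1.9%) and 0 were lower (background 1.14%). It was the Tgfb1 promoter, whose genotype log2 fold change was 0.46 in eTregs and -0.28 in cTregs, a difference of 0.74 (SE 0.30, 95% interval 0.12 to 1.35, adjusted p = 1.00). The median difference was 0.33 over the members and 0.03 over all regions. The Areg promoter differed by 0.27 (SE 0.35, 95% interval -0.44 to 0.97) and the Il10 intronic region by 0.20 (SE 0.67, 95% interval -1.16 to 1.56). Larger values with wide errors came from regions of low counts, such as 1.39 (SE 1.12) at the Areg region 59.2 kb downstream, 1.38 (SE 0.79) at the Il10 region 23.3 kb upstream and 1.16 (SE 0.74) at the Fgl2 region 30.2 kb upstream.

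Genes of the same pathways were counted next, by the same rule for regions. The EGF-like relatives of Areg showed 3 of 21 tested regions higher and 0 lower in control eTregs at the adjusted threshold (14.3% and 0%, against 2.01% and 3.29% of all tested regions), and 2 higher and 0 lower in Atg14-deficient eTregs (9.52% and 0%, against 4.41% and 5.4%). Epgn, Ereg and Btc, which encode other ligands of EGF family receptors, neighbour Areg on chromosome 5 and supplied all of them. The region 8.6 kb downstream of the Ereg start had log2 fold changes of 2.05 (SE 0.46, adjusted p = 0.00770) in controls and 2.10 (SE 0.46, adjusted p = 0.00465) in Atg14-deficient Tregs. That 11.3 kb downstream of the Epgn start had 1.72 (SE 0.36, adjusted p = 0.00544) and 1.18 (SE 0.32, adjusted p = 0.0193). The third, 124.3 kb downstream of the Btc start, had 1.78 (SE 0.46, adjusted p = 0.0222) in controls.

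Of 47 tested regions of the partners of Ebi3 and their receptors, 1 was higher and 3 lower in control eTregs, which is 2.13% and 6.38% against 2.01% and 3.29% of all regions. In Atg14-deficient eTregs 2 were higher and 9 lower, or 4.26% and 19.1% against 4.41% and 5.4%. The shares of higher regions were thus near the background. The higher region in controls lay 15.8 kb downstream of the start of Il12a (log2 fold change 1.09, SE 0.25, adjusted p = 0.00896), the gene of the other IL-35 subunit. A region 0.8 kb downstream of the start of Il12rb2, a receptor chain for IL-12, fell by 1.66 on the log2 scale (SE 0.45, adjusted p = 0.0263) in controls and by 1.68 (SE 0.38, adjusted p = 0.00549) in Atg14-deficient Tregs. The 2 regions higher in Atg14-deficient eTregs lay 19.4 kb upstream of the same gene (log2 fold change 2.21, SE 0.58, adjusted p = 0.0157) and 1.6 kb upstream of Il12rb1, which encodes the other chain of the IL-12 receptor (1.10, SE 0.33, adjusted p = 0.0324). Regions of Il6st, a shared receptor subunit, supplied 1 of the lower regions in controls and 5 in Atg14-deficient Tregs.

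Genes that release or present TGF-β had 1 of 59 tested regions higher and 4 lower in control eTregs (1.69% and 6.78%, against 2.01% and 3.29% of all regions), and 0 higher and 6 lower in Atg14-deficient eTregs (10.2% lower, against 5.4%). Lrrc32, which encodes the protein GARP that holds latent TGF-β on Tregs, supplied 1 higher region, 8.1 kb upstream of its start (log2 fold change 2.14, SE 0.58, adjusted p = 0.0261), and 3 of the 4 lower ones. The lower region 71.1 kb from its start passed in both genotypes, at -1.59 (SE 0.30, adjusted p = 0.00180) in controls and -1.48 (SE 0.25, adjusted p = 0.000533) in Atg14-deficient Tregs.

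Among granzymes, perforin and associated genes, 1 of 28 regions was higher in control eTregs, near Gzmf (3.57%, against 2.01% of all regions). In Atg14-deficient eTregs 2 were higher (7.14%, against 4.41%), 3.9 kb upstream of Gzma (log2 fold change 1.66, SE 0.47, adjusted p = 0.0274) and 2.5 kb upstream of Gzmk (1.71, SE 0.39, adjusted p = 0.00944). The IL-10 relatives and receptors had 1 lower of 12 regions in controls (8.33%, against 3.29%) and 2 lower in Atg14-deficient Tregs (16.7%, against 5.4%), all assigned to Il10rb. Opioid precursors and receptors had 1 lower of 18 in controls (5.56%, against 3.29%) and 1 higher and 2 lower in Atg14-deficient Tregs (5.56% and 11.1%, against 4.41% and 5.4%), and all lay within a receptor gene body and nearest to the start of Ipcef1. The 3 regions of the Fgl2 relative and receptor gave 0 calls at either threshold. Between genotypes 0 regions of any of these 7 lists passed the adjusted threshold by edgeR, and over the 188 list regions the unadjusted calls in eTregs were 9 higher and 4 lower. These are 4.79% and 2.13%, near the 4.59% and 1.77% of all regions. In cTregs 8 were higher and 1 lower, or 4.26% and 0.532% against 1.99% and 1.35%.

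Across the 14 libraries, the region outside the loci whose log2 CPM (prior count 2) was most like that of the leading region of each member was named as a description, since the libraries share their states and depth. For the Il10 region 25.9 kb upstream it was a Sema4d region (Pearson r = 0.977), for the Ebi3 promoter the Polr2g promoter (0.957), for the Tgfb1 intron the Ncaph promoter (0.907), and for the Areg promoter the Enpp2 promoter (0.961). For the Fgl2 region 2.1 kb upstream it was a Camk2d region (0.884), for the Gzmb region 34.7 kb upstream a region nearest to Bhlhe40 (0.929), and for the Penk promoter an Arhgap15 region (0.916). Each is the highest of 61366 regions, so that a high value was to be had.

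The central 200 bases of the tested members were searched for motifs on both strands. The AP-1 motif TGANTCA was present in 10 of 40 (25.0%), against 11.6% of all tested regions and 13.6% of those over 500 bp from a start. Of the 11 members more accessible in eTregs of either genotype 5 held it, against 28.1% of all 1224 regions on chromosomes called higher in control eTregs. The sets are unlike, since those 11 include regions called only in Atg14-deficient Tregs, which the 1224 leave out. The TCF/LEF motif CTTTGA was present in 16 of 40 (40.0%), against 14.8% and 16.9%, and the RUNX motif TGTGGT in 14 (35.0%), against 22.7% and 26.3%. The CRE variant TGCGTCA was in 3 (7.5%), against 1.31% and 0.998%, and the full CRE in 1, the Areg promoter, against 0.934%. The letters AGATAA, bound by GATA factors, were in 4 members (10.0%), against 8.61% of all regions. The STAT motif TTCNNNGAA was likewise in 4, against 6.1%, and the E-box CACGTG in 2 (5.0%), against 4.93%. The forkhead motif TGTTTAC was in 0 of 40, against 3.02% of all regions. A match describes the letters only, and the members of 1 locus are not independent of each other.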

How the data were processed

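ATAC-seq libraries of sorted splenic Tregs were compared in 4 groups, 3 control and 4 Atg14-deficient libraries for each of cTregs and eTregs. The authors deposited raw counts of reads per region for all 14 libraries. Per the paper's methods, reads were trimmed, aligned with BWA, cleared of duplicates with Picard, shifted for Tn5 insertion and split by fragment size. Nucleosome-free fragments went to MACS2, and regions found in enough replicates of a group were merged and counted with bedtools. The submitters' processing notes name cutadapt 1.9, Picard 1.65 and MACS2 2.1.0.20150603 and the build mm10 (GRCm38), whereas the methods name another trimmer and mm9. The coordinates were checked against GRCm38, where 10317 of 21774 protein-coding genes had a region within 200 bp of their start, against 770 after a shift of 20000 bp. Of counts above 0, 81.41% were even, so that both mates of a pair were often counted and counting error is larger than the counts alone give.

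Regions were fitted with edgeR 4.0.16 (robust quasi-likelihood, total-count scaling, filterByExpr) over all 14 libraries, with Benjamini-Hochberg adjustment over 61366 regions. A call needed an adjusted p below 0.05, or where stated an unadjusted p, and a log2 fold change beyond 0.5. DESeq2 1.42.0, other scalings, other filters, a replicate block and the removal of each library were the alternatives, and the fitting code was tested on simulated data. Replicate numbers are shared by cTreg and eTreg libraries in the labels. The deviations of same-numbered libraries from their group means correlated at 0.119 to 0.243 in Atg14-deficient Tregs, which meets the rule for pairing (every r over 0.1), and at 0.0543 to 0.209 in controls, which does not. Regions were described singly by a rule, per gene: the promoter region, the region of highest mean count, each region called at the adjusted threshold, and the region of smallest p in each comparison. Motif searches used the GRCm38.p6 sequence. Promoter sequences of Areg, Fgl2, Tgfb1, Gzmb and Ebi3 matched by symbol in RefSeq, 5 of 7 genes. The members, the lists and the tests were chosen with earlier results of these data known. Marker and pathway lists were assigned regions by the same rule. Intervals are 95% intervals of the fit. A further sort marker, 1 marker list and 1 region's sequence are not reported here.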

Additional observations from a re-analysis of the deposited data

Results flagged for a closer look

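Among the 27 regions described singly and the 7 summed loci, 4 of 68 groups of 4 libraries held a library set apart from the other 3 by Dixon's criterion, and chance gives about 1 in 20. Atg14-deficient eTreg 3 was high at the Gzmb region 34.7 kb upstream, at 28.06 CPM against 18.4 to 19.8 CPM. Atg14-deficient eTreg 2 was high at the Penk region 7.2 kb downstream, at 9.622 CPM against 1.03 to 2.40 CPM, and the cTreg library of that number was the highest of its group there at 2.34 CPM. Atg14-deficient cTreg 1 was low at the Fgl2 promoter, at 6.299 CPM against 9.34 to 9.64 CPM. The summed Fgl2 locus had 1 high Atg14-deficient cTreg library, at 68.74 CPM. The Tgfb1 promoter stood out because its genotype effect differed between eTregs and cTregs, by 0.735 on the log2 scale in edgeR's test of the difference (unadjusted p = 0.0200, adjusted p = 1.00). Over the alternatives this difference ran from 0.60 to 0.88, and its adjusted p from 0.864 to 1.00.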

How the results depend on the processing

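With at least 10 counts in every library, only 27996 regions were tested. The member calls then became 4 in controls and 5 in Atg14-deficient Tregs between states. At the unadjusted threshold they were 5 and 6, with 1 in eTregs between genotypes. Over all these regions the unadjusted calls were 1750 higher and 2980 lower in controls and 2791 and 3491 in Atg14-deficient Tregs. Between genotypes in eTregs they were 1388 and 606. With the replicate block, Atg14-deficient Tregs had 19 calls between states, cTregs had 3 unadjusted calls between genotypes, and the difference of genotype effects had 2, while controls had 8 higher and 1 lower, the added ones being the Il10 region 6.2 kb downstream (log2 fold change 1.22, adjusted p = 0.0140) and the Fgl2 region 2.1 kb upstream (-0.91, adjusted p = 0.0256). Over all 61366 regions the block gave 1097 higher and 1025 lower unadjusted calls in cTregs, and 1652 and 1119 for the difference of genotype effects. Across genotypes no same-numbered correlation was over 0.1, and libraries share only a number. The block between genotypes ended the unadjusted eTreg call at the Il10 region 23.3 kb upstream (log2 fold change 1.07) and made one at the Tgfb1 promoter (0.53). It turned the sign in eTregs at the Il10 regions 32.1 kb upstream (0.45 to -0.025), 9.2 kb upstream (0.098 to -0.021), 6.2 kb downstream (0.30 to -0.095) and 29.6 kb downstream (0.57 to -0.24), so that the 6 Il10 regions called between states were all below 0. In cTregs it turned the Il10 region 3.0 kb downstream (0.20 to -0.093), the Gzmb region 13.9 kb upstream (0.017 to -0.097) and the Penk region 7.2 kb downstream (-0.11 to 0.50). All 14 libraries correlated best with their own number in the other state, a hint from the data and not from the design. With a cutoff of 1, unadjusted calls were 1 in eTregs, 0 in cTregs and 0 for the difference. Over all regions they were 1507 higher and 434 lower in eTregs, 746 and 446 in cTregs, and 839 and 481 for the difference. TMM, DESeq2 size factors and loess offsets each gave 2 unadjusted calls in cTregs. Over all regions these settings gave 1125 higher and 972 lower, 1178 and 917, and 986 and 1084. Leaving out 1 library gave 2 to 7 calls in controls (1.8% to 6.11% of all regions), 5 to 14 in Atg14-deficient Tregs (4.49% to 12.1%), and at the unadjusted threshold 0 to 6 in eTregs (4.65% to 7.82%), 1 to 3 in cTregs (3.01% to 4.28%) and 0 to 4 for the difference (2.6% to 4.03%). Among the regions followed through every setting, values changed sign when 1 library was left out at the Ebi3 promoter in eTregs (-0.7012 to 0.0708), the Penk region 7.2 kb downstream in eTregs (-0.71 to 1.26) and the Ebi3 difference of genotype effects (-0.26 to 0.71). The cause was not tested. Of the named regions' values, 270 kept direction and side of the threshold without 1 library and 40 lost the threshold, and 307 and 5 did so under the other settings. These values include genotype comparisons with no adjusted call to lose, so the counts do not give the share of calls that held. Over all regions, the block gave 2868 higher and 3499 lower calls in controls (1235 and 2016 without it) and 4684 and 4811 in Atg14-deficient Tregs (2707 and 3314). At 10 counts in every library these were 604 and 1136, and 1452 and 2031. DESeq2 called 35 higher and 21 lower in eTregs (edgeR 13 and 1) and 14 and 4 in cTregs (edgeR 9 and 1), and at 10 counts 0 and 1, and 0 and 0, were called. DESeq2 size factors split the unadjusted eTreg calls 2395 to 1409. Counts under 10 per library limit the regions of lowest signal.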
